A study of Arabidopsis thaliana with 12 samples.

Results

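The comparison described here sets the poliv mutant against wild type (wt) after heat, in nuclei of shoot stem cells sorted from inflorescence apices of Arabidopsis thaliana at day 28. It rests on 4 of the 12 bisulfite samples of the series, 2 of poliv heat and 2 of wt heat. The matching controls are another 4 samples, 2 of poliv control and 2 of wt control. All plants are Col-0 and carry the reporter pCLV3::H2BmCherry, which labels stem cell nuclei through the CLV3 promoter, so wt here means the reporter line. The poliv plants carry in addition the T-DNA insertion allele nrpda-3 in NRPD1 and were obtained by crossing the reporter into that mutant. Heat plants were kept at 37 °C for 1 day until day 7 and then recovered for 21 days, while control plants were grown without heat. The deposited table holds 1 set of columns for both libraries of a group, so no value below has a replicate error, and every test compares pooled libraries rather than genotypes. The loci were all transposable elements (TEs) and gene loci with at least 50 cytosine calls in both heat columns, which gave 22103 of 31189 TEs and 33410 of 38386 gene loci in the CHH context.

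Plants methylate cytosines in the CG, CHG and CHH contexts, where H is any base but G. CG methylation is copied at replication by MET1, CHG methylation by CMT3 in a loop with histone H3K9 methylation, and CHH methylation has to be placed anew by CMT2 or DRM2. RNA polymerase IV, whose largest subunit is encoded by NRPD1, transcribes TEs into precursors that RDR2 and DCL3 turn into small interfering RNAs. These RNAs, bound to AGO4 and paired with transcripts of polymerase V, guide DRM2 in RNA-directed DNA methylation. This pathway is best known at short TEs and at the edges of long ones, whereas CMT2 acts inside long TEs.

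Sequences of short loci whose methylation differed are printed here because the sites in question can then be read directly. They are the gene intervals of the RefSeq annotation on TAIR10.1, on the strand of the gene from 5′ to 3′, and the deposited table itself gives no coordinates. Capitals mark every CG in the first 4 sequences, every CHG in MIR156a and every cytosine in the CHH context in MIR405a. AT1G64795 (chr1:24082579-24082848, plus strand, a protein-coding gene whose coding exons reach both ends) lost CG methylation in poliv, AT1G07493 (chr1:17961498-17961772, minus strand, a long non-coding RNA) gained it, and MIR160a (chr2:16340279-16340363, plus strand) and MIR171c (chr1:22930089-22930204, minus strand) are microRNA precursors that gained it. MIR156a (chr2:10676451-10676573, minus strand) gained CHG methylation and MIR405a (chr2:9634957-9635113, minus strand) lost CHH methylation.
AT1G64795: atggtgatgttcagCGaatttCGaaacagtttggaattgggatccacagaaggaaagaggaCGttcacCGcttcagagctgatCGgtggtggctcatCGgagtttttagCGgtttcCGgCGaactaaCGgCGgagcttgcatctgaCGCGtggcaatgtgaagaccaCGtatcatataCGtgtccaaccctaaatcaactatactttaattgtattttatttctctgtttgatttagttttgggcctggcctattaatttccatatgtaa
AT1G07493: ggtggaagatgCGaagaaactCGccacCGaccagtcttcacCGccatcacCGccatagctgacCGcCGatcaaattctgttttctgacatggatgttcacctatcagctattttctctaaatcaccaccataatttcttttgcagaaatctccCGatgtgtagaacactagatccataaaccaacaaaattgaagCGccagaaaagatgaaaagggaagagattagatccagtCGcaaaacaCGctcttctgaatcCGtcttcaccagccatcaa
MIR160a: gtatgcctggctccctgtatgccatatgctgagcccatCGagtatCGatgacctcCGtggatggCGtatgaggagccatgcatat
MIR171c: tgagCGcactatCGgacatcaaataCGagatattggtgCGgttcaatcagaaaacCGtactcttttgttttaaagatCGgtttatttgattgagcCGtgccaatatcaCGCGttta
MIR156a: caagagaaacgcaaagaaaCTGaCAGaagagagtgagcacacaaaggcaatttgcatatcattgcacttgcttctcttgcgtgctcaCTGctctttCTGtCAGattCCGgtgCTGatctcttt
MIR405a: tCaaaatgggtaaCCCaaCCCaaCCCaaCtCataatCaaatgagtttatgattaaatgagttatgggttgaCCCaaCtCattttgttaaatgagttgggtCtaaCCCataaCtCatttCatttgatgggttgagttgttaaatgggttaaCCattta

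Of these windows, AT1G64795 holds 15 CG sites, AT1G07493 holds 12, MIR171c 9 and MIR160a 4, of which 3 in MIR171c and 1 in MIR160a lie in an annotated mature microRNA. MIR156a holds 7 CHG sites, 4 of them in a mature microRNA. The printed strand of MIR405a holds 27 cytosines in the CHH context. Each CG, CAG and CTG site counts on both strands, and the CCG of MIR156a sits in CCGG, which holds a CCG on either strand. In the context marked, a cytosine of these 6 windows was read at most 16.6 times on average (AT1G64795, poliv heat) and least often in MIR405a. In wt heat a cytosine of AT1G64795 was read 6.47 times on average.

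The heat columns held 48565595 (wt) and 40440617 (poliv) calls in CG. In CHH they held 227999199 and 186041063. Chloroplast DNA, which is taken as unmethylated and so measures unconverted cytosines, read 0.703% in CHH in wt heat and 0.704% in poliv heat, and 0.670% and 0.616% in CG. The corresponding control columns were lower, at 0.390% and 0.404% in CHH. Methylation levels cannot check the sorted cell type, and a level between 0 and 100% does not tell apart a share of nuclei from a share of sites. At NRPD1 itself (chromosome 1, 23354685 to 23362589), reads cannot show the insertion. Its CG level was 69.7% in wt heat and 70.7% in poliv heat, and its CHG level was 0.951% and 14.9% (0.730% and 14.9% in the control columns). The CHG difference was 13.9 points (95% interval 12.92 to 14.95, Fisher's exact test, adjusted p = 3.5e-203). DDM1, a nucleosome remodeller intact in both genotypes, read 16.5% and 15.9% in CG.

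A locus was called when Fisher's exact test on its methylated and unmethylated calls gave an adjusted p under 0.05 and its level differed by at least 10 points. In CHH, TEs fell from a mean of 5.22% in wt heat to 3.15% in poliv heat (median 3.26% and 1.76%), a mean difference of -2.07 points. In total 1513 TEs were called lower (6.85% of those tested) and 111 higher (0.502%). In CHG the TE mean was 38.9% in wt and 36.2% in poliv, with 428 of 7824 TEs called lower (5.47%) and 22 higher (0.281%). In CG it was 69.4% and 68.0%, with 279 of 8569 called lower (3.26%) and 100 higher (1.17%). These counts treat calls as independent. With the variance scaled to the spread between columns of 1 genotype, 222 TEs were called lower and 11 higher in CHH, 182 and 3 in CHG, and 82 and 27 in CG. Losses made up most calls at TEs in each context, and gains were most frequent, relative to losses, in CG.

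Gene loci had low CHG and CHH levels and few calls in these contexts. In CHH their mean was 1.04% in wt heat and 0.902% in poliv heat, with 59 called lower (0.177%) and 10 higher (0.0299%). In CHG the means were 3.17% and 2.94%, with 118 of 31615 called lower (0.373%) and 38 higher (0.120%). In CG the balance was the other way round. The mean was 14.7% for wt against 14.95% for poliv. There 338 of 31708 gene loci were called higher (1.07%) against 195 lower (0.615%), and with the scaled variance 222 and 115.

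The same rule between columns of 1 genotype gives the spread that pooled libraries and the heat treatment together bring. Between wt heat and wt control it called 0.631% (CG), 0.323% (CHG) and 3.65% (CHH) of TEs, the last as 394 lower and 365 higher. Between poliv heat and poliv control it called 0.748%, 0.101% and 1.27% of TEs, the last as 126 lower and 156 higher. For gene loci in CG the corresponding shares were 0.141% and 0.208%. Each of these comparisons shares a column with poliv heat against wt heat, so these values stand side by side only. The direction of the CHH calls was nearly balanced within a genotype and was not between genotypes.

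The CHH loss at TEs grew with the CHH level that the TE had in wt control, a column that is not part of the comparison. TEs with 5 to 10% CHH in wt control averaged 7.10% in wt heat and 5.04% in poliv heat, and 5.45% of these 4091 were called lower. A TE under 10% in wt heat cannot be called lower, so the rule itself holds down the share called in low bins. Between 15 and 20% the means were 14.4% and 4.08%, and 43.9% of 451 TEs were called lower. Among the 369 TEs at 30% or above the means were 34.4% and 17.3%, while the medians were 31.5% and 3.60%, and 63.1% were called lower and 8.67% higher. The mean of poliv heat was thus nearly flat from 5 to 30% in wt control while wt heat rose from 7.10% to 19.1%.

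**Figure D1:**
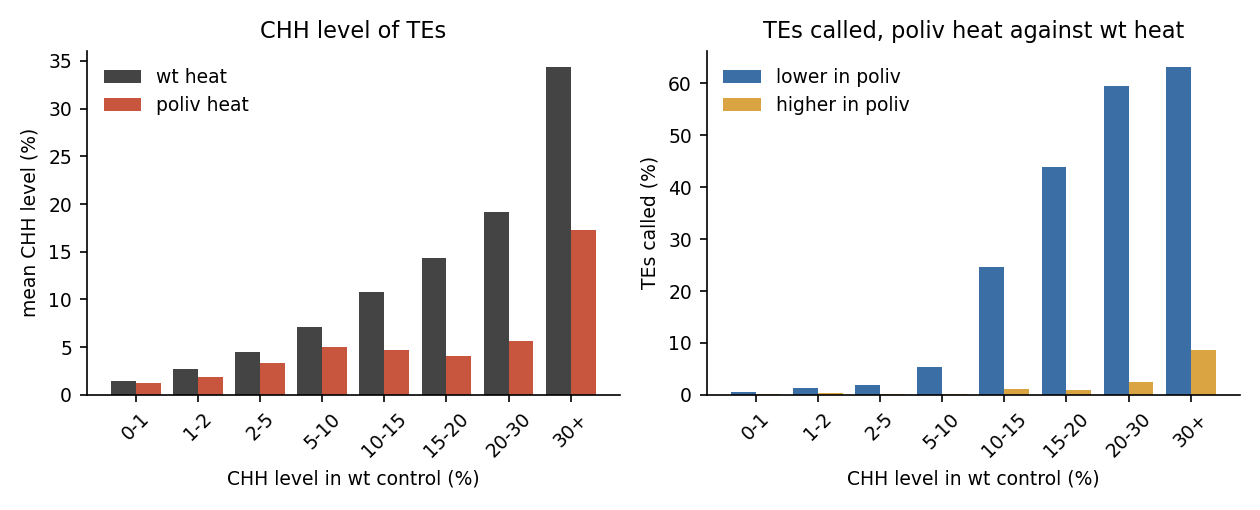
TEs in bins of their CHH level in wt control (x axis, %): mean CHH level in the 2 heat columns (left, %) and share of TEs called lower or higher in poliv heat (right, %). The wt heat bars rise to 34.4% in the top bin, whereas the poliv heat bars stay between 4.08% and 5.64% from 5 to 30%.

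The share of CHH methylation kept in poliv varied widely among TEs with high levels. Of 2230 TEs with at least 10% CHH in wt control, 1045 (46.9%) kept 20% or less of their wt heat level in poliv heat, 698 lay in between and 487 (21.8%) kept 80% or more. Sparse counts widen this ratio, so it was also taken over the 692 TEs with at least 200 calls in both heat columns and wt control. There 224 TEs (32.4%) kept 20% or less, 245 (35.4%) lay in between and 223 (32.2%) kept 80% or more, with a median of 41.6% retained. Of the 224, 190 (84.8%) also kept 20% or less between the control columns, beside 276 (40.0%) of all 690 TEs with a control value. Of 222 TEs that kept 80% or more after heat and had a control value, 154 (69.4%) did so in the control columns, beside 191 (27.7%) of the 690. The TEs were chosen by their level in wt control, against which the control ratio is taken, so that choice lowers the control ratios and these values are a description.

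**Figure D2:**
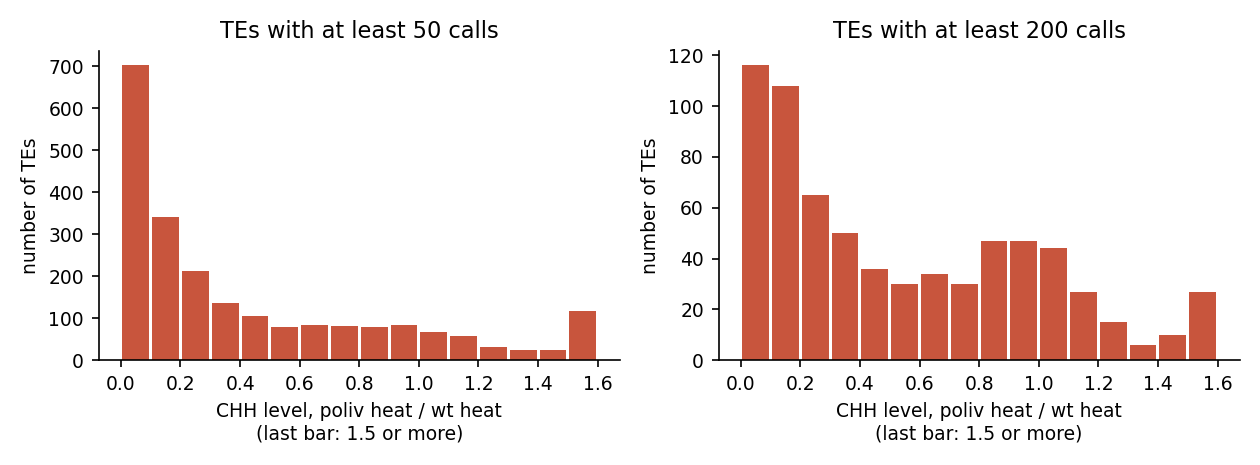
Number of TEs (y axis) by the ratio of CHH level in poliv heat to wt heat (x axis, steps of 0.1), for TEs with at least 10% CHH in wt control and at least 50 calls (left) or 200 calls (right) per column. At 200 calls the first bar holds 116 TEs, the bars fall to between 30 and 36 from 0.4 to 0.8, and the bars from 0.8 to 1.1 hold 44 to 47 each.

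The TEs that lost and kept CHH methylation had similar mean levels in wt heat, a value that is part of the ratio dividing them. Those that kept 20% or less averaged 17.5% CHH in wt heat and 1.55% in poliv heat, and those that kept 80% or more averaged 16.3% and 18.4%. Of the latter 223, 23 were called higher in CHH and 0 lower, so that set also holds gains. In CHG, 114 TEs of the losing set with enough calls averaged 54.7% in wt heat and 22.3% in poliv heat, and 83 of them (72.8%) were called lower. The 168 TEs of the keeping set averaged 56.1% and 55.8% in CHG, with 2 called lower. In CG the losing set averaged 82.3% and 73.7%, with 29 of 123 called lower, and the keeping set 87.0% and 86.3%, with 0 of 172 called in either direction. These sets were cut by the CHH values of the same columns, so their CHH, CHG and CG values are a description.

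Losses in different contexts overlapped in part, among TEs with enough calls in both contexts. Of the 1513 TEs called lower in CHH, only 235 had a CHG value and 353 a CG value. Of the 235, 155 (66.0%) were called lower in CHG and 0 higher, beside 5.47% and 0.281% of all TEs tested. Their median CHG difference was -27.5 points. Of the 353, 73 (20.7%) were called lower in CG, beside 3.26% of all TEs tested. In the other direction, 155 of 427 TEs called lower in CHG (36.3%) were called lower in CHH, beside 6.85%. Of 20 TEs called higher in CHH with a CHG value, 0 were called in CHG.

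The number of CHH calls at a TE, which grows with its length as well as with depth, went with the size of the loss. Among the 5514 TEs with the fewest calls in wt heat (50 to 154) the mean fell from 5.82% in wt to 2.73% in poliv, with 10.5% called lower. Among the 5529 with the most calls (724 or more) the wt mean was similar, at 5.36%, but the poliv mean was 4.73% and 1.21% were called lower. TE length and family were not analysed here. Between wt heat and wt control the same rule called 6.50% of the first set and 0.452% of the last. Several CHH calls can come from 1 read, so calls at a short TE are not independent, and the part of this in the genotype calls was not tested.

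Single loci are named below by the size of their difference, among those with at least 100 calls in each of the 4 columns and the same call in the control pair, so their control values were part of the choice. The largest CHH losses of TEs were nearly complete. AT3TE81870 had 70.9% CHH in wt heat and 1.09% in poliv heat, and 53.7% and 0% in the control columns, where 0 of 245 calls allows up to 1.22%. AT2TE58860 read 68.5% and 0.513%, AT3TE17970 66.7% and 0.418%, AT2TE33100 65.4% and 0% (0 of 129 calls, which allows 2.33%), and AT2TE63580 61.5% and 0.885%. Differences of these 5 TEs lay between -69.8 and -60.6 points in heat and between -66.1 and -46.7 points in control. The largest gain, at AT1TE49860, was from 7.64% in wt heat to 39.0% in poliv heat (10.2% and 21.8% in control). AT2TE39860 followed with 0.847% and 26.2% (0% and 19.1% in control, the 0 of 212 calls allowing 1.42%). Only 10 of 91 TEs called higher in CHH after heat were also called higher in the control pair, and 12 were called lower there.

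In CHG the largest TE losses were AT1TE58740, from 82.7% to 23.65%, AT5TE31160, from 73.5% to 19.3%, and AT1TE52520, from 63.7% to 9.84%. In CG 2 TEs lost nearly all methylation. AT1TE93275 had 90.5% in wt heat and 1.02% in poliv heat (94.4% and 0% in control, 0 of 677 calls, which allows 0.443%), a difference of -89.5 points (95% interval -92.1 to -85.8, Fisher's exact test, adjusted p = 1.9e-202). AT1TE70480 had 86.2% and 2.42% (84.6% and 5.66% in control). The largest CG gain at a TE was at AT1TE83185, with 4.42% in wt heat and 55.7% in poliv heat and 1.54% and 52.3% in control. Of the 5 largest CG losses at TEs, 4 were on chromosome 1, beside 65 of all 279 CG losses and 1696 of the 8569 TEs tested.

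Among gene loci the largest CG losses were nearly complete at 2 loci that carried dense CG and CHG methylation in wt. AT1G75945, which encodes an uncharacterized protein, had 92.0% CG in wt heat and 1.89% in poliv heat, and 92.9% and 0% in control (0 of 261 calls, which allows 1.15%). Its CHG level was 64.8% and 1.18%. AT1G64795, printed above, had 89.7% CG in wt heat and 0.402% in poliv heat, and 90.2% and 0.826% in control, pooled over the 15 CG sites in capitals. Its CHG level fell from 58.7% to 0% (0 of 336 calls, which allows 0.893%). The CG levels of AT1G64795 rest on 194 calls in wt heat and 497 in poliv heat, and on 112 and 484 in control. The whole poliv heat column held fewer CG calls than that of wt heat. Calls were also more in poliv heat than in wt heat at the TEs AT1TE93275 (591 against 368) and AT1TE70480 (331 against 210). At AT1G75945 they were 212 in each. What raised the calls at such loci in poliv was not tested. AT5G04435, a long non-coding RNA, read 81.1% and 29.9% in CG, AT2G27229, which encodes a pentatricopeptide repeat protein, 71.9% and 22.2%, and AT5G21125, which encodes an uncharacterized protein, 67.2% and 19.5%.

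The largest CG gains at gene loci formed an overlapping stretch on chromosome 1 and a few single loci. AT1G07887, a long non-coding RNA (chromosome 1, 19963067 to 19964105), had 8.70% CG in wt heat and 84.0% in poliv heat, and 8.32% and 79.0% in control. The heat difference was 75.3 points (95% interval 72.2 to 78.0, Fisher's exact test, adjusted p = 1.1e-297), and its CHG level was 1.72% and 44.3%. It lies inside MRD1 (5.90% and 50.7% CG), which in turn overlaps HEI10, a gene required for meiotic crossovers (12.9% and 45.1%), so that reads where they overlap count for each. AT1G25211, which encodes an F-box protein, had 9.68% and 78.8% CG and overlaps the non-coding AT1G05927 (9.94% and 80.2%). Their differences were 69.1 and 70.2 points in heat and 40.3 and 40.8 points in control, and the change between heat and control passed the test described below for both. AT1G07493, printed above, had 41.3% and 94.9%, a difference of 53.6 points (95% interval 47.4 to 59.1) over the 12 CG sites in capitals.

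In CHG, AT1G07977 fell from 76.3% in wt heat to 25.3% in poliv heat and AT1G48953 from 56.3% to 7.02%. The largest gain was 42.5 points, at AT1G07887 named above (1.72% and 44.3%). MRD1, which holds that locus, had 1.28% and 25.4% CHG. AT5G12090, which encodes a protein kinase, had 37.8% and 61.4%, and AT4G19580, which encodes a DNAJ domain protein, 2.35% and 17.38%. The largest CHH losses were at AT3G44440 (37.6% and 0.746%), AT5G09040 (37.2% and 1.29%), AT1G08417 (31.8% and 0.433%) and AT1G77815, which encodes a ribonuclease H-like protein (31.9% and 1.93%).

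**Figure D3:**
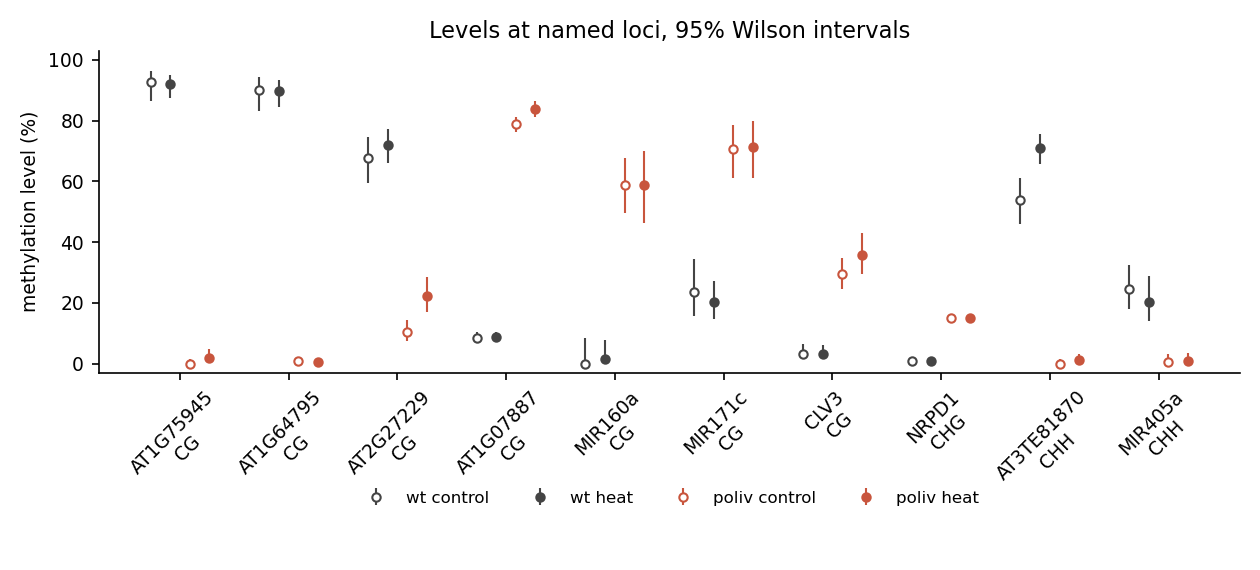
Methylation level (y axis, %) with 95% Wilson intervals, which cover counting error only, at 10 loci in the context named below each, in wt control, wt heat, poliv control and poliv heat. MIR160a, for example, lies at 0% and 1.43% in wt control and wt heat and at 58.9% and 58.7% in poliv control and poliv heat.

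MicroRNA precursors, which are processed into regulators of other transcripts, stood out on reading the table and were chosen after their values were seen. Of 116 with enough calls in CG, 10 were called higher and 5 lower in poliv heat, 12.9% in all, beside 1.68% of all gene loci and 3.49% of the 1946 gene loci of at most 300 bases. The microRNA loci were not cut by length, and some of those called, such as MIR835 and MIR5652, are longer than 300 bases. All 10 loci called higher were higher in poliv in the control columns too, and 4 of them were also called there. Of the 5 losses, 4 had the same sign in the control columns and 1 was also called there. MIR160a, whose product targets auxin response factors, had 1.43% CG in wt heat and 58.7% in poliv heat, on 70 and 63 calls over the 4 CG sites in capitals above. MIR171c, whose product targets the SCL genes that maintain the shoot meristem, had 20.3% and 71.3%, a difference of 51.0 points (95% interval 38.6 to 61.1, Fisher's exact test, adjusted p = 1.1e-12). MIR169a, whose product targets NF-YA genes, had 33.3% and 78.0%. Smaller gains were called in both pairs at MIR835 (0.741% and 19.4% in heat) and MIR5652 (0% and 10.7%). MIR5656 (74.8% and 90.0%) was called in the heat pair alone. Further gains were called at MIR319a (3.03% and 19.3%), MIR167a (0.775% and 16.0%), MIR168b (0% and 12.8%) and MIR447b (1.18% and 26.1%). None of these 4 was called in the control pair, where their differences were 4.46, 9.02, 6.67 and 7.81 points, and at MIR447b the change of 17.1 points passed the test described below.

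In CHG, 3 of 116 microRNA loci were called higher and 1 lower, 3.45% in all, beside 0.852% of gene loci of at most 300 bases. MIR156a, whose product delays the change from juvenile to adult growth through SPL genes, had 0% in wt heat (0 of 130 calls, which allows 2.31%) and 16.8% in poliv heat, against 0% and 13.9% in control. In CHH, 4 of 289 were called lower and 3 higher, 2.42% in all, beside 0.639% of such short loci. MIR405a fell from 20.4% to 0.952% (24.6% and 0.538% in control) and MIR8172 from 17.1% to 1.34% (39.1% and 1.85%). MIR5642a lost CG methylation after heat, with 67.6% in wt heat and 22.9% in poliv heat, beside 57.6% and 52.3% in control. MIR838, by contrast, was lower in both pairs, with 38.6% CG in wt heat and 3.92% in poliv heat. These loci are short, and their levels rest on few sites and reads.

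Called gene loci were short in general. The median length of gene loci tested in CG was 1871 bases, and that of loci called lower or higher 794 and 1034 bases. In CHH it was 1791 bases for those tested and 373 for those called lower. By annotated type, 119 of 26773 protein-coding genes were called lower and 234 higher in CG (0.444% and 0.874%), beside 47 and 54 of 2831 long non-coding RNAs (1.66% and 1.91%) and 6 and 26 of 800 transcribed pseudogenes (3.25% higher). The 195 losses lay in 180 and the 338 gains in 325 non-overlapping stretches.

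CG calls at gene loci were more frequent on chromosome 1, which carries NRPD1, than elsewhere. On chromosome 1, 83 gene loci were called lower and 151 higher, 2.81% of 8322, whereas on chromosomes 2 to 5 the share was between 1.01% and 1.54%. In the control pair it was 1.96% on chromosome 1 and 1.03% over the others, and between wt heat and wt control 0.0609% and 0.170%. In windows of 2 Mb along chromosome 1, the share after heat was between 3.17% and 5.46% from 16 Mb before NRPD1 to 4 Mb after it. It was between 0.760% and 1.63% farther before, and 1.504% and 0% in the last windows. AT1G64795 lies 0.728 Mb after NRPD1, MIR171c 0.425 Mb before it (-0.425 Mb), AT1G75945 5.16 Mb after it and AT1G07493 at -5.39 Mb. The part of the chromosome of origin in these calls was not tested. At TEs the shares on chromosome 1 were 5.60% (CG), 6.57% (CHG) and 8.06% (CHH), against 4.13%, 5.55% and 7.15% over the other chromosomes.

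**Figure D4:**
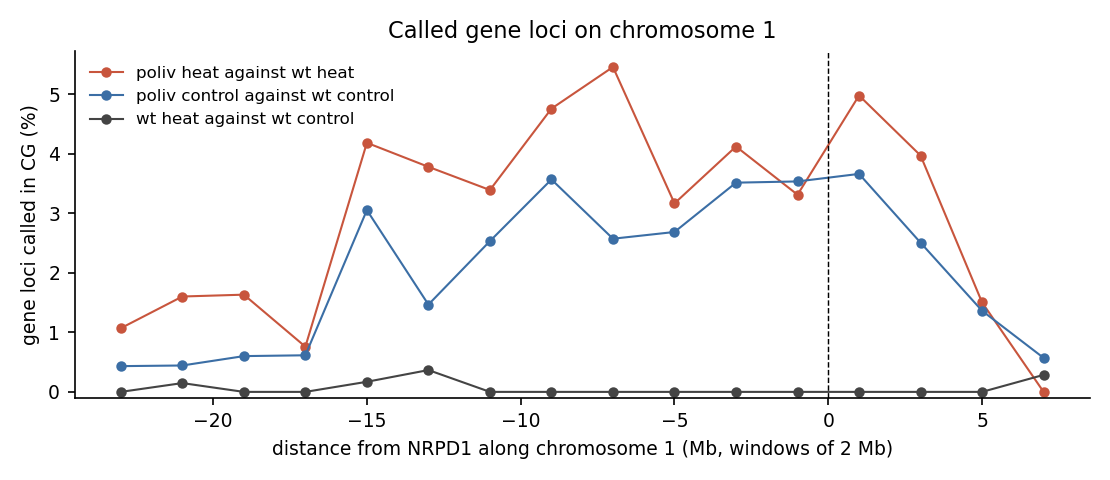
Share of gene loci called in CG in either direction (y axis, %) in windows of 2 Mb by distance from NRPD1 along chromosome 1 (x axis, Mb). The genotype comparison after heat reaches 5.46% and that of the control columns 3.67%, while wt heat against wt control stays at or below 0.367%.

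TEs and genes grouped by their state in wt control showed where the calls fell. Of 400 TEs with at least 10% CHH and enough calls in all 3 contexts, 112 were called lower in CHH, 112 of 388 in CHG (28.9%) and 43 of 389 in CG (11.1%). Of 4610 TEs with CG at or above 50%, CHG at or above 20% and CHH under 10%, 28 were called lower in CHH (0.608%), 143 in CHG (3.13%) and 71 in CG (1.55%). Their mean CHH level in wt heat was 5.74%, so many could not fall by the 10 points a call needs. Gene loci with CG at or above 20% and CHG under 5%, the state known as gene body methylation, had a mean CG level of 34.9% in wt heat and 35.1% in poliv heat, with 69 of 6144 called lower and 78 higher. Gene loci with CHG at or above 20%, which are methylated like TEs, had 81 of 1393 called lower in CHG (5.81%). Of 16062 gene loci with CG and CHG under 5%, 96 were called higher in CG (0.598%).

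The lists of genes below are short, and the shares called over all gene loci were 1.68% (CG), 0.493% (CHG) and 0.207% (CHH), so a count of 0 or 1 in a list is near that background. A gene under 10% in wt heat also cannot be called lower. Of 15 genes of the Pol IV arm, 12 of the Pol V arm and 18 for maintenance and demethylation, 0 were called in CG or CHH, and NRPD1 was the single call in CHG. Their CG differences ranged from -8.07 to 6.49 points. In CHG and CHH the medians of these lists in wt heat lay between 0.665% and 0.803%, where a loss of 10 points is not possible. Of 33 heat response genes, 0 were called in any context, with CG differences between -4.05 and 5.05 points and a median of 0.02 beside 0.01 over all gene loci. The median levels of these 33 genes in wt heat were 1.04% (CG), 0.666% (CHG) and 0.633% (CHH), so many could not be called lower. Of 10 reference genes and of 9 tested markers of other cell types, 0 were called.

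Of 24 genes of the shoot meristem and of floral identity, CLV3 was the single call, in CG, beside the background of 1.68%. CLV3, which encodes the peptide ligand that restricts stem cell number, had 3.30% CG in wt heat and 35.9% in poliv heat, and 3.06% and 29.4% in control. The difference of 32.6 points (95% interval 25.6 to 39.7, Fisher's exact test, adjusted p = 1.8e-18) includes any reads of the CLV3 sequence in the reporter, which cannot be told apart from the gene's own and which all groups carry. AT2G27229, named above for its CG loss, lies 14.98 kb from CLV3. Of 16 silenced and epiallelic loci, MRD1 and HEI10 were called higher in CG and MRD1 in CHG.

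ONSEN, the heat-activated COPIA78 retrotransposon, has 8 copies in the list used. Their CHH level was lower in poliv heat than in wt heat at 8 of 8, with a median difference of -2.73 points beside -0.43 over all TEs. AT1TE71045 was the single copy called lower, beside 6.85% of all TEs, with 15.4% in wt heat and 2.22% in poliv heat, and 17.7% and 2.16% in control. In CG, 6 of 6 copies with enough calls were lower, with a median of -9.68 points beside -0.76 over all TEs, and 3 were called lower, beside 3.26% of all TEs. AT5TE15240 had 89.6% in wt heat and 70.8% in poliv heat, AT1TE59755 90.4% and 79.6%, and AT3TE92525 95.2% and 65.8% on 63 and 79 calls. In the control columns the same copies read 88.0% and 86.7%, 90.9% and 88.2%, and 89.5% and 88.7%. The change from the control to the heat difference was -17.4 points at AT5TE15240 (SE 4.89), which passed the test of the change described below, and -8.09 at AT1TE59755 (SE 2.34), under the 10 points required. Each SE covers counting error only, and the test was not repeated with the scaled variance. AT3TE92525 had too few calls in wt control for this test. ONSEN copies are near-identical, so reads may be split among them. Of the 54 TEs that the study lists as induced by heat, a list chosen by the study that includes ONSEN and is not independent evidence, 3 of 41 were called lower in CG (all TEs 3.26%) and 1 of 45 in CHH (all TEs 6.85%), and these were ONSEN copies.

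The genotype differences after heat were compared with those of the control pair, in columns that share no library. That pair had 7.2% of TEs called lower and 0.388% higher in CHH, 6.22% and 0.252% in CHG, and 2.45% and 1.26% in CG. Of its gene loci, 0.423% were called lower and 0.849% higher in CG. The shares for CHG were 0.601% and 0.0867%, those for CHH 0.213% and 0.006%. Of TEs called lower after heat and testable in both pairs, 804 of 1329 in CHH (60.5%), 224 of 333 in CHG (67.3%) and 107 of 225 in CG (47.6%) were called lower in the control pair as well. For gene loci in CG it was 74 of 188 losses (39.4%) and 162 of 332 gains (48.8%). Among the remaining CHH losses of TEs, 88 had the opposite sign in the control pair, and 16 of these were called higher there. Of 9 gene loci called higher in CHH, 0 were called higher in the control pair and 3 lower. Over all loci tested in both pairs, Pearson's r of the 2 differences was 0.64 for TEs in CHH (20228 loci) and 0.64 for gene loci in CG (31110 loci), a description across loci, which are not independent.

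**Figure D5:**
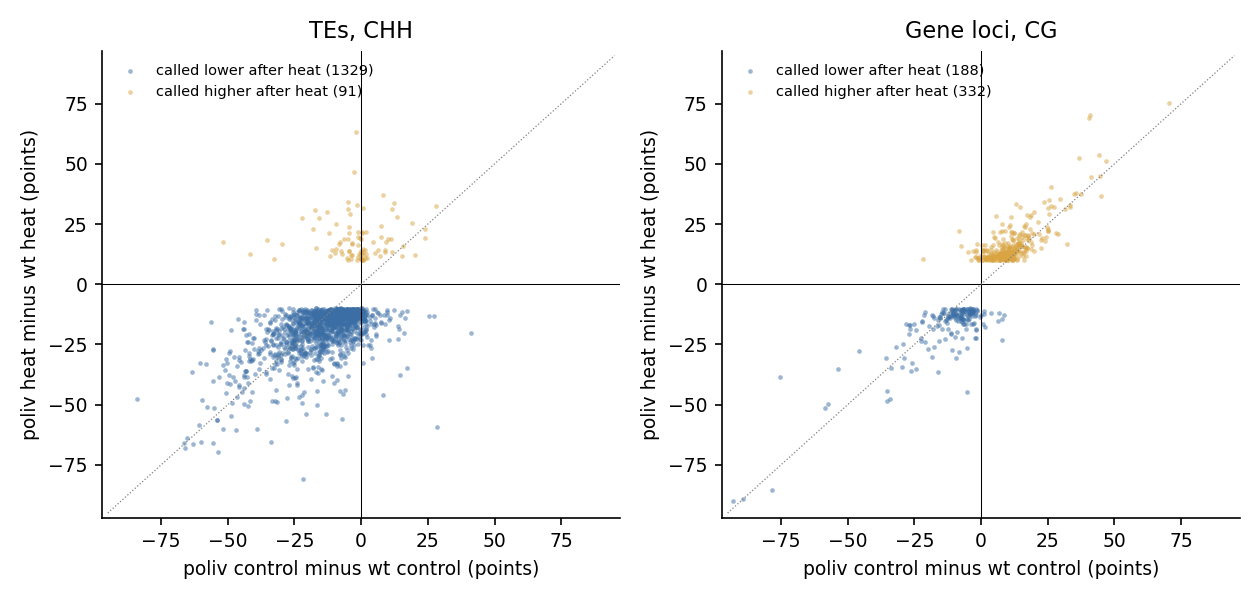
Difference between poliv and wt in heat (y axis, points) against that in control (x axis, points) for TEs called in CHH (left) and gene loci called in CG (right) after heat, 1 point per locus, with the dotted line at equality. Of 332 gene gains, 16 lie left of 0, whereas of 91 TE gains in CHH 49 do.

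A z test on the pooled calls, with Benjamini-Hochberg adjustment and the same minimum of 10 points, asked where the heat and control differences disagreed. The test treats calls as independent and was not repeated with the scaled variance. At TEs it called 61 of 7551 loci more negative in heat and 32 more positive in CG (0.808% and 0.424%). For CHG it called 5 and 8 of 6952 (0.0719% and 0.115%), and for CHH 349 and 348 of 20228 (1.73% and 1.72%). At gene loci the CG counts were 65 and 40 of 31110 (0.209% and 0.129%), those for CHG 2 and 7 of 31043 (0.00644% and 0.0225%) and those for CHH 18 and 32 of 33315 (0.054% and 0.0961%). AT5G26970, which encodes an uncharacterized protein, had a CG difference of -43.6 points in control and -9.22 in heat, a change of 34.4 points (SE 4.77). AT4G00580, which encodes a COP1-interacting protein-like protein, had 24.8% CHG in wt heat and 0.478% in poliv heat, beside 21.2% and 10.8% in control.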

How the data were processed

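Bisulfite libraries were made from sorted nuclei. According to the study's methods and the labels, the authors converted reads with bedtools 2.27, trimmed them with Trim Galore 0.6.2, aligned them with Bismark 0.22.2 (labels: TAIR10), removed duplicates and called cytosines with methylpy. The deposited counts are whole numbers of methylated calls and of all calls per locus, context and group. The deposited fraction (18 columns) was not used. The sources used here do not state how a group's 2 libraries became 1 set of columns.

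Levels are methylated calls over all calls, at loci with at least 50 calls in each column. Calling used a two-sided Fisher's exact test (p as 2 times the smaller tail) with Benjamini-Hochberg adjustment over TEs and gene loci of a context (scipy 1.17.1, Python 3.11.15), an adjusted p under 0.05 and at least 10 points. Level intervals are Wilson, difference intervals Newcombe, both 95% and covering counting error only. The function was tested on simulated data.

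Named loci are NRPD1, DDM1, ONSEN copies, called list members and, per context and class, the 5 largest losses and gains with at least 100 calls in all 4 columns and the same call in the control pair, plus 3 changes each way. The text gives a part of these. MicroRNA loci and the neighbours of named loci were added after their values were seen. Members and lists were chosen with earlier results of these data known. Of 38386 gene loci, 37898 matched RefSeq (TAIR10.1). Columns of ddm1 were not used here.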

Additional observations from a re-analysis of the deposited data

Results flagged for a closer look

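At some loci the difference between poliv and wt differed between heat and control, by the z test on pooled calls with adjustment over all loci of a context. That test was not repeated with the scaled variance. The largest change each way per context and class is given here, as heat difference minus control difference. In CG these were -39.5 points at AT2TE22785, 43.2 at AT2TE75960, -39.4 at MIR5642a (AT3G06345) and 36.7 at AT4G04223. In CHG they were -27.9 at AT4TE19320, 39.2 at AT2TE12415, -28.4 at AT1G34400 and 44.7 at AT5G56070. In CHH they were -87.7 at AT5TE60215, 69.3 at AT2TE18100, -19.0 at AT5G02015 and 83.2 at AT2G10020. The ONSEN copy AT5TE15240 changed by -17.4 points in CG.

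At AT5TE60215 the CHH level was 26.2% in wt control, 54.6% in poliv control, 59.3% in wt heat and 0% in poliv heat (0 of 177 calls, which allows 1.69%). At AT2G10020 it was 75.2%, 39.3%, 0.671% and 48.1%. The wt values of the pooled columns were thus apart between control and heat at both loci, and the poliv values at AT5TE60215. The poliv intervals at AT2G10020 overlapped (34.3 to 44.5% in control, 40.3 to 55.9% in heat). Such intervals cover counting error only, and several calls can come from 1 read, so they cannot show a change with treatment. Each value in heat rests on 149 to 177 calls.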

How the results depend on the processing

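No paired analysis was possible because each group has 1 set of pooled columns, so no replicate could be blocked or left out. No count or mean difference changed direction under the alternatives run. The 51 named largest differences have the same call in the control pair by the rule that chose them, which says nothing about their stability. Counts are given as lower and higher.

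With at least 100 calls, 154 and 61 TEs were called in CG, 208 TEs lower in CHG and 72 higher in CHH. With a minimum of 20 points, the counts were 145 and 47 TEs and 48 and 69 gene loci in CG, 5 TEs higher and 63 and 9 gene loci in CHG, and 570 and 39 TEs and 10 and 2 gene loci in CHH. Variance was also scaled by factors taken from columns of 1 genotype, from 1.78 (TEs, CHG) to 9.73 (gene loci, CHH). This left 82 and 27 TEs and 115 and 222 gene loci in CG, 182 and 3 and 16 and 7 in CHG, and 222 and 11 and 5 and 0 in CHH. Requiring the call in the control pair too left 107 and 43 and 74 and 162 in CG, 224 and 1 and 73 and 13 in CHG, and 804 and 10 and 21 and 0 in CHH. Adjusting within TEs alone called 38 TEs higher in CHG. The share of gains among gene calls moved from 24.4% to 12.5% in CHG with 20 points, and from 14.5% to 0% in CHH with scaling or the control pair.

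Mean differences (points) with at least 100 calls were -1.12 (TEs, CG), -1.31 (TEs, CHG), -0.159 (gene loci, CHG) and -1.82 (TEs, CHH). Weighted by calls they were -1.46, -0.339 and -0.470 for TEs and 0.135, -0.103 and -0.0801 for gene loci in CG, CHG and CHH. Medians were -0.760, -0.428 and -0.433 for TEs and 0.00843, -0.0609 and -0.0468 for gene loci. Subtracting the chloroplast level gave 0.262 for gene loci in CG and -0.184 in CHG. The weighted TE mean in CHH lay far nearer 0 than the unweighted -2.07. Depth limits short loci most.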
